A study of Mus musculus with 24 samples.

Results

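The 8 genes described here, Igf1, Insr, Igf1r, Irs1, Irs2, Pik3r1, Foxo1 and Foxo3, carry the signal of insulin and insulin-like growth factors from the ligand to the transcription factors at its end. They were found by the Ensembl identifiers of their symbols, and make up 8 of the 38293 genes of the mRNA table. The set was chosen by mRNA levels of these same 12 libraries in their 4 groups, which were known when it was named, so the values below are a description of the genes and carry no test. The libraries hold mRNA of the nucleus accumbens (NAc), a ventral striatal region involved in reward and motivation, from wild-type C57BL/6J mice that were 9 weeks old by the labels. Stressed males (SM) and stressed females (SF) went through subchronic variable stress (SCVS), in which foot shock, tail suspension and restraint alternated on consecutive days, and unstressed males (NSM) and unstressed females (NSF) stayed in their home cages. All females were taken in estrus or proestrus. For each library 10 punches of 5 mice were pooled, each group had 3 libraries of separate mice, and a library held between 41076780 and 60867747 counted reads.

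Insulin and IGF-1 bind the insulin receptor and the IGF-1 receptor, related tyrosine kinases at the cell surface. The activated receptors phosphorylate insulin receptor substrate (IRS) proteins, which recruit phosphoinositide 3-kinase (PI3K) and thereby switch on the kinase AKT. AKT keeps FoxO transcription factors out of the nucleus, and FoxO factors that do reach the nucleus activate genes of fasting metabolism, protein breakdown and stress resistance, the gene of IRS2 among them. In the striatum, insulin signaling is known to influence dopamine release and reuptake.

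The promoters of the 2 IRS genes are shown first, because Irs1 and Irs2 encode adaptors of the same kind. The mRNA levels of stressed and unstressed males overlapped for Irs1 and did not for Irs2. A link of these levels to the promoters was not tested. RefSeq's promoter table (build GRCm38.p6, from 250 bases before to 50 after each annotated start) matched 7 of the 8 symbols, with 2 entries for Pik3r1. The 130 bases before the start of Irs1 lie on the minus strand at chr1:82291440-82291569, and those of Irs2 on the minus strand at chr8:11008930-11009059. Both are written 5′ to 3′ on the strand of the gene. Capitals mark an E-box (CACGTG) and the letters TTGTTTTG, the reverse complement of CAAAACAA, which is known as an insulin response element bound by FoxO factors.
Irs1: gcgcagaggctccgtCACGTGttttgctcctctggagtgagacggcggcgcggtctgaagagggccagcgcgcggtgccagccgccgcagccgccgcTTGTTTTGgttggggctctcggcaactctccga
Irs2: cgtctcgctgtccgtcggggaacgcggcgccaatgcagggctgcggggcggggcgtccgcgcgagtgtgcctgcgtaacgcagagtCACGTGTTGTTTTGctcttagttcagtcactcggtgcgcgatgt

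Both genes held both motifs. In Irs2 the E-box began 44 bases before the start and the TTGTTTTG followed it directly, beginning 38 bases before the start. In Irs1 the same motifs were apart, the E-box at 115 and the TTGTTTTG at 33 bases before the start. The insulin response element, searched on both strands, was present in 2.51% of the 32851 promoters of the table and the E-box in 7.15%, and none of the other 6 promoter entries of the group held either motif. A core FoxO site (GTAAACA, 3.65% of promoters), the cAMP response element (TGACGTCA, 1.79%) and a glucocorticoid receptor half-site (AGAACA, 19% of promoters) had no match in any of the 8 entries. The motifs were chosen after the mRNA values had been seen, and a match of letters describes the sequence only.

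All 8 genes passed the filter on low counts. Levels are given in CPM, the reads of a gene relative to the library total, scaled between libraries by TMM factors (trimmed mean of M values), and levels of different genes are compared as CPM per kilobase of annotated exon, mean ± SD over the 12 libraries. The transcription factor gene Foxo1 was highest with 26.5 ± 2.50 CPM per kilobase, followed by Pik3r1 with 21.2 ± 1.35 and Foxo3 with 13.2 ± 0.930. Irs2 followed with 10.2 ± 2.53, Insr with 8.68 ± 0.208 and Igf1r with 6.36 ± 0.591. Irs1 and the ligand Igf1 were lowest, with 0.810 ± 0.0946 and 0.350 ± 0.0522 CPM per kilobase. The libraries of Irs2 overlapped those of its neighbors Foxo3 and Insr in this order, and no other neighbors overlapped. In stressed males alone Irs2, at 6.42 ± 0.224 CPM per kilobase, stood below Insr at 8.66 ± 0.217 (SD, n = 3). The order rests on exon lengths of the annotation, which gives Irs2 4024 and Igf1r 4476 exon bases against 9144 for Irs1, 9669 for Insr and 9921 for Igf1.

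**Figure D1:**
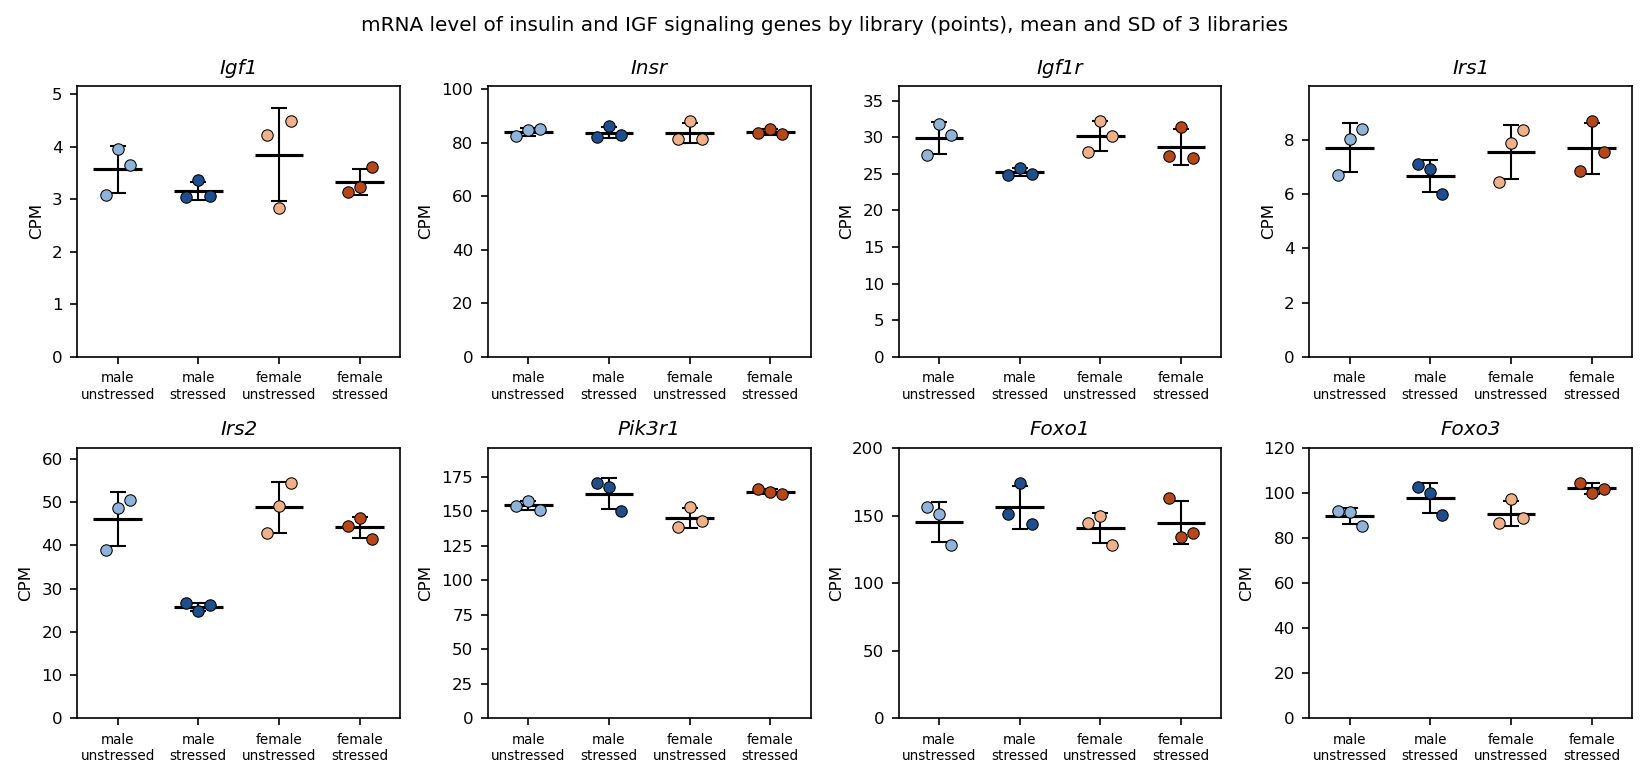
Each panel shows 1 gene, with its level in CPM on a linear axis from 0. Points are the 12 libraries in their 4 groups, the thick line is the mean of 3 libraries and the bar their SD. The 3 stressed-male libraries of Irs2 lie between 24.8 and 26.6 CPM, below all 9 others, whereas the points of Insr lie between 81.4 and 88.0 CPM in every group.

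The ligand IGF-1, a growth factor that cells within the brain also produce, was represented by few reads. Igf1 (chr10:87321010-87399792, plus strand, build NCBIM37) was counted 121 to 211 times in a library. It measured 3.09, 3.96 and 3.65 CPM in the NSM libraries and 3.05, 3.36 and 3.06 CPM in the SM libraries. In females it measured 4.22, 2.84 and 4.48 CPM without stress and 3.13, 3.23 and 3.60 CPM with stress. The stressed groups lay within or overlapped the unstressed ones in both sexes, and the log2 fold change was -0.16 (SE 0.17) in males and -0.16 (SE 0.16) in females. Both values depended on the libraries or covariates used. Without NSF replicate 2, the lowest library, the female value was -0.39, and with the level of cortical marker genes as a covariate the male value was -0.50 (SE 0.18).

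The 2 receptors differed in their pattern. Insr (chr8:3150922-3279617, minus strand) encodes the insulin receptor and was the steadiest of the 8 genes, with a pooled SD within groups of 0.0401 on the log2 scale against 0.0957 for Igf1r. Its libraries read 82.4, 84.8 and 85.3 CPM in NSM, 82.1, 86.1 and 83.0 in SM, 81.4, 88.0 and 81.5 in NSF, and 83.7, 85.1 and 83.3 in SF. All 4 groups overlapped, and the log2 fold change with stress was -0.01 (SE 0.04) in males and 0.01 (SE 0.04) in females.

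Igf1r (chr7:75097713-75371484, plus strand), the IGF-1 receptor gene, was lowest in stressed males. It measured 27.5, 31.9 and 30.3 CPM in the NSM libraries and 24.8, 25.9 and 25.0 CPM in the SM libraries. The female libraries measured 28.0, 32.2 and 30.2 CPM without stress and 27.4, 31.5 and 27.1 CPM with stress. Every SM library lay below all 9 other libraries, although the gap was narrow, from 25.9 to 27.1 CPM, and the female groups overlapped. The male difference was -0.24 (SE 0.07) on the log2 scale, the female difference -0.07 (SE 0.07), and the difference between them, female minus male, 0.17 (SE 0.10). The male value shrank to -0.14 (SE 0.10) with the cortical marker level as a covariate.

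The 2 adaptors of the IRS family link the receptors to PI3K. Irs1 (chr1:82229676-82287991, minus strand) was the weaker of the pair, with 271 to 477 reads in a library. The unstressed males had 6.69, 8.03 and 8.40 CPM and the stressed males 7.10, 6.91 and 6.00 CPM. The unstressed females had 6.45, 7.87 and 8.37 CPM and the stressed females 6.84, 8.69 and 7.54 CPM. Stressed and unstressed libraries overlapped in both sexes, with a log2 fold change of -0.20 (SE 0.13) in males and 0.02 (SE 0.12) in females.

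Irs2 (chr8:10986980-11008458, minus strand) showed the greatest difference of the 8 genes, and it was found in males. The NSM libraries measured 38.9, 48.7 and 50.6 CPM and the SM libraries 26.6, 24.8 and 26.1 CPM. The NSF libraries measured 42.8, 49.1 and 54.5 CPM and the SF libraries 44.5, 46.4 and 41.6 CPM. The 3 stressed-male libraries were nearly equal to each other and lay below all other libraries, whereas stressed and unstressed females overlapped. Group means were 46.1 ± 6.24 CPM in NSM, 25.8 ± 0.903 in SM, 48.8 ± 5.86 in NSF and 44.2 ± 2.43 in SF (SD, n = 3), so that the level in stressed males was 55.8% of the mean of the other 9 libraries. On the log2 scale the stress difference was -0.82 (SE 0.10) in males and -0.14 (SE 0.10) in females, and female minus male was 0.69 (SE 0.14). Of the 14397 genes averaging 50 reads or more, 50 had a more negative male log2 fold change than Irs2.

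In pooled tissue, fewer cells of a type and less RNA per cell cannot be told apart. Markers of medium spiny neurons, the main neurons of the NAc, were high in every library, with Ppp1r1b between 761 and 1006 CPM, and the summed level of the 9 markers was 5344 to 6158 CPM in NSM and 5939 to 6726 CPM in SM. The 8 cortical glutamatergic markers summed to 221 to 234 CPM in NSM, 310 to 474 in SM, 249 to 674 in NSF and 258 to 370 in SF. Of these 8 genes 1 rose in males at an adjusted p under 0.05, and 2 rose by an unadjusted p under 0.05 with a fold of at least 1.3. By that second rule 5 were higher in unstressed females than in unstressed males, and 6 had a negative stress difference, female minus male. The defining gene of the list, Slc17a7, measured 4.02 to 16.4 CPM in NSM, 39.5 to 162 in SM, 16.4 to 297 in NSF and 34.5 to 93.2 in SF. With the cortical marker level as a covariate the male difference of Irs2 was -0.80 (SE 0.14). All 5 red blood cell markers rose in stressed males at an adjusted p under 0.05, from a summed 21.8 to 27.4 CPM in NSM to 38.5 to 47.2 CPM in SM, against 29.8 to 38.9 in NSF and 28.8 to 31.9 in SF. Of 6 microglial markers 2 rose at an adjusted p under 0.05, with sums of 237 to 253 CPM in NSM and 265 to 293 in SM (NSF 248 to 261, SF 256 to 291). Of 6 oligodendrocyte markers 2 rose, with sums of 4601 to 5145 CPM in NSM and 5528 to 5559 in SM (NSF 5250 to 5622, SF 5126 to 5940). Of 7 meningeal markers 1 fell and of 7 endothelial markers 1 rose in males at an adjusted p under 0.05. By an unadjusted p under 0.05 with a fold of at least 1.3, 1 endothelial marker and 1 of 6 tested choroid plexus markers fell in males. By the same rule all 5 red blood cell markers had a negative stress difference, female minus male. The part of these cell types in the results was not tested. The level used as the cortical covariate did not overlap between NSM and SM. In males the fits with it therefore cannot tell the cortical part from stress, whether a gene kept or lost its call. The choroid plexus gene Ttr was at 66.1 CPM in 1 NSM library and at no more than 2.62 CPM in any other.

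Pik3r1 (chr13:102450716-102538172, minus strand) encodes p85 alpha, the regulatory subunit through which PI3K docks on IRS proteins. Unstressed females had 139, 153 and 143 CPM and stressed females 166, 164 and 162 CPM, so that the female groups were separate. Unstressed males had 154, 157 and 151 CPM and stressed males 170, 168 and 150 CPM, with 1 stressed library below the unstressed ones. The log2 fold change was 0.18 (SE 0.05) in females and 0.08 (SE 0.05) in males, and female minus male was 0.11 (SE 0.08). With the cortical marker level as a covariate the order of the sexes turned, with 0.13 in females and 0.18 in males.

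Of the FoxO genes, whose products AKT holds in the cytoplasm, Foxo3 (chr10:41901647-41996561, minus strand) was higher in all stressed than in all unstressed females. The NSF libraries read 86.8, 97.3 and 89.0 CPM and the SF libraries 105, 100 and 102 CPM. In males the NSM libraries read 92.0, 91.8 and 85.6 CPM and the SM libraries 103, 100 and 90.5 CPM. The male groups overlapped, and the log2 fold change was 0.12 (SE 0.06) in males and 0.17 (SE 0.06) in females. With the cortical covariate the male value was 0.24 (SE 0.07) and the female value 0.11 (SE 0.05), so that female minus male turned from 0.05 to -0.13. Foxo1 (chr3:52072259-52154031, plus strand) overlapped between stressed and unstressed mice of both sexes. It measured 156, 152 and 128 CPM in NSM, 151, 175 and 144 in SM, 144, 150 and 128 in NSF, and 163, 135 and 137 in SF. The log2 fold change of Foxo1 was 0.11 (SE 0.10) in males and 0.04 (SE 0.10) in females, and with the cortical covariate 0.23 (SE 0.12) and -0.02 (SE 0.10).

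**Figure D2:**
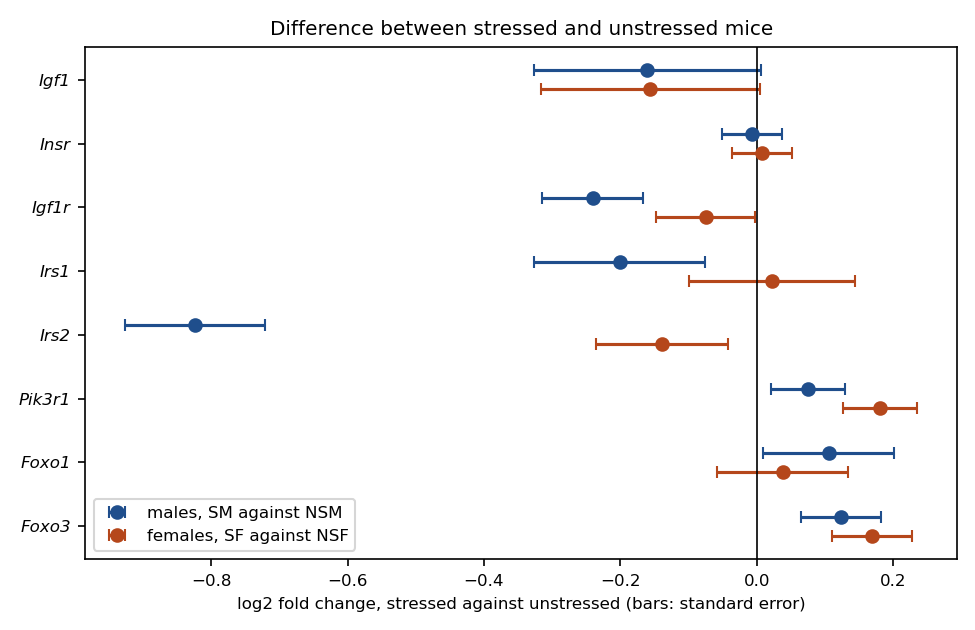
The horizontal axis gives the log2 fold change of stressed against unstressed mice for each of the 8 genes, in males (blue) and females (orange), and bars are standard errors of the fit. Irs2 stands at -0.82 in males and -0.14 in females, whereas the values of the 7 other genes lie between -0.24 and 0.18 in both sexes.

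Set against the whole transcriptome, the count of these genes that passed a threshold in males was 1 of 8. A gene was called if its unadjusted p was under 0.05 and it changed 1.3-fold or more, which held for 6.44% of the 18593 tested genes in males, and only Irs2 of the 8 was called. Irs2 was also the only one of the 8 at an adjusted p under 0.05, a rule that 3.32% of all genes met. These 618 genes became 166 without NSM replicate 2, 101 without NSM replicate 3, 182 without SM replicate 1, 79 without SM replicate 2 and 972 without SM replicate 3, and Irs2 was among them each time. The groups SM and NSM did not overlap for Irs2 and Igf1r, 2 of the 8, against 23% of all genes. In females none of the 8 was called, where 1.73% of all genes were, and none had an adjusted p under 0.05, as was the case for 0% of all genes. That limma count of 0 stood beside 786 genes at an unadjusted p under 0.05, and DESeq2 gave 3 genes and edgeR 0, whereas limma without NSF replicate 2 gave 61. The groups SF and NSF did not overlap for Foxo3 and Pik3r1, 2 of the 8, against 11.3% of all genes. Irs2 alone of the 8 was called for the sex-by-stress interaction, where 4.42% of all genes were, and by limma none had an adjusted p under 0.05 with all 12 libraries, against 0.0269% of all genes. Irs2 did pass the adjusted interaction threshold by DESeq2, and by limma without NSM replicate 1 or without NSF replicate 2. The contrast was among the values by which the set was chosen, so no more is read from these counts.

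Without stress the sexes differed little in these genes. Of the 8, none was called between unstressed females and unstressed males (5.31% of all genes were), none had an adjusted p under 0.05 (0.285% of all genes) and none had groups that did not overlap (19.5% of all genes). The difference, female minus male, was 0.09 (SE 0.10) for Irs2, 0.02 (SE 0.07) for Igf1r, -0.02 (SE 0.12) for Irs1 and -0.01 (SE 0.04) for Insr on the log2 scale. The median log2 fold change of the 8 genes was 0.00 in this comparison, -0.08 with stress in males and 0.01 with stress in females, beside medians over all tested genes of 0.0033, -0.012 and -0.0039. The comparisons with stress in males and between unstressed sexes share the NSM libraries.

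Ratios of reads within a library do not depend on scaling between libraries. The ratio of Irs2 to Irs1 was 5.82, 6.06 and 6.02 in the NSM libraries and 3.74, 3.59 and 4.35 in the SM libraries. It was 6.64, 6.24 and 6.51 in the NSF libraries and 6.51, 5.34 and 5.52 in the SF libraries. The balance of the 2 adaptors thus shifted away from Irs2 in every stressed-male library relative to the 9 others, while stressed and unstressed females overlapped. The ratio of Insr to Igf1r was 2.99, 2.66 and 2.81 in NSM and 3.31, 3.33 and 3.32 in SM, and it was 2.90, 2.73 and 2.70 in NSF and 3.05, 2.71 and 3.07 in SF. Here too the stressed males lay above all other libraries. The ratio of Foxo1 to Foxo3 overlapped between stressed and unstressed mice in both sexes, with means of 1.62 ± 0.105 in NSM, 1.60 ± 0.138 in SM, 1.55 ± 0.111 in NSF and 1.42 ± 0.123 in SF (SD, n = 3).

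**Figure D3:**
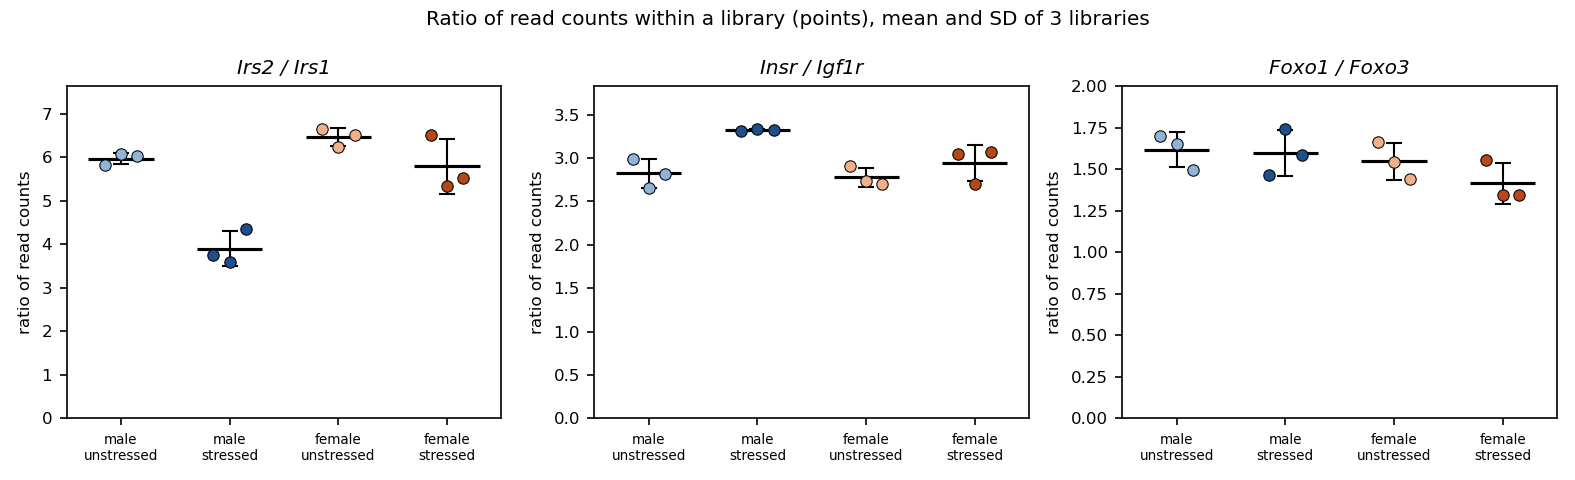
Each panel shows the ratio of the read counts of 2 genes within a library, on a linear axis from 0, with points for libraries, a thick line for the mean and a bar for the SD of 3 libraries. Stressed males have the lowest Irs2 to Irs1 ratios, between 3.59 and 4.35, and the highest Insr to Igf1r ratios, between 3.31 and 3.33.

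Other genes whose level most resembled that of a member were ranked by Pearson's r of log2 CPM over the 12 libraries, among the 14397 genes averaging 50 reads or more. The 3 nearest to Irs2 were Myh9 (r = 0.98), Pom121 (r = 0.96) and Pcdh1 (r = 0.96), and after the group means were removed they were Btaf1 (r = 0.95), Fam53c (r = 0.93) and Tet3 (r = 0.93). The nearest gene was Kcnn3 for Igf1r (r = 0.91), Usp34 for Insr (r = 0.91), Galr1 for Irs1 (r = 0.88) and Lhfp for Igf1 (r = 0.90). It was Pgcp for Pik3r1 (r = 0.94), Arhgap10 for Foxo1 (r = 0.95) and Hlf for Foxo3 (r = 0.93). The points share the library, the group and the depth, and the values are the extremes of many, so they serve as a description only.

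Annotated genes on the opposite strand overlap 6 of the 8 genes, and whether counting used the strand is not given in the sources used here. The overlapping genes of Irs1, Insr, Igf1 and Foxo1 had at most 4 reads in any library, which does not show how reads in the shared stretches were assigned. Those of Irs2 and Pik3r1, 9530052E02Rik and Gm11016, have no value here, so reads of the 2 strands cannot be told apart for these genes.

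The rest of the pathway was described with a list of 74 further genes, of which 67 passed the filter. The 7 others were the insulin genes Ins1 and Ins2, the binding protein genes Igfbp1 and Igfals, Irs3, Trim63 and G6pc, none with more than 5 reads in a library, and Ins1 with 0. The list was written with earlier results of these data known. In males 4 of the 67 rose and 3 fell by the rule of unadjusted p and fold, and 2 rose and 1 fell at an adjusted p under 0.05 (limma, Benjamini-Hochberg over all tested genes, here and for the other p-values), with a median log2 fold change of -0.03. In females 1 rose, 1 fell and none had an adjusted p under 0.05, with a median of 0.02. The shares called, 10.4% in males and 2.99% in females, stand beside the shares of all genes given above.

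FoxO target genes moved in both directions in stressed males. Pdk4 encodes pyruvate dehydrogenase kinase 4, which holds back glucose oxidation, and it measured 16.9, 17.0 and 15.4 CPM in NSM and 10.9, 12.3 and 11.3 CPM in SM. In NSF it measured 12.2, 12.8 and 13.2 CPM and in SF 13.0, 12.8 and 12.2 CPM. Pdk4 thus fell by 0.51 on the log2 scale in males (SE 0.07, adjusted p = 0.00372), whereas the female groups overlapped. Unlike Irs2, Pdk4 was also lower in unstressed females than in unstressed males, by a log2 difference of -0.37 (SE 0.06, adjusted p = 0.0324 by limma), a call that 7 of 23 alternatives lost, the ones without NSM replicate 1 or 2 or NSF replicate 1 or 3 among them (adjusted p = 0.105, 0.119, 0.0980 and 0.114).

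Fbxo32, which encodes the muscle ubiquitin ligase atrogin-1, went the other way. It measured 36.2, 35.7 and 32.9 CPM in NSM and 49.7, 56.6 and 46.9 CPM in SM, a rise of 0.54 on the log2 scale (SE 0.08, adjusted p = 0.00482 by limma). In NSF it measured 40.3, 43.7 and 36.9 CPM and in SF 41.7, 41.3 and 45.9 CPM, which overlapped. Of the 16 tested target genes 12.5% were called in males, 1 up and 1 down, beside 6.44% of all tested genes. The median log2 fold change of the 16 was -0.12, beside -0.012 over all tested genes. The 14 others were not called, among them Txnip at -0.16 (SE 0.08), Klf15 at -0.26 (SE 0.09) and Bcl6 at -0.27 (SE 0.07). Some of the 14 were above 0, such as Eif4ebp1 at 0.18 (SE 0.22), Cat at 0.10 (SE 0.06) and Sod2 at 0.08 (SE 0.06). With the cortical marker level as a covariate Pdk4 was at -0.49 (adjusted p = 0.0618, over the alternatives 3.98e-07 to 0.0618) and Fbxo32 at 0.62 (adjusted p = 0.0585, 3.93e-08 to 0.0585).

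Among the inhibitors of the pathway 1 gene passed in males. Deptor, which encodes an inhibitor of the kinase mTOR, measured 12.7, 12.3 and 11.7 CPM in NSM and 15.2, 17.9 and 16.9 CPM in SM. Its rise was 0.45 on the log2 scale (SE 0.10, adjusted p = 0.0273 by limma), and in females the values were 14.6, 14.5 and 17.1 CPM without and 15.5, 16.9 and 19.6 CPM with stress. Unstressed females thus all lay above unstressed males, by 0.32 on the log2 scale (SE 0.10, adjusted p = 0.149 by limma). These 2 groups were separate for 19.5% of all tested genes. Deptor lost its call without NSM replicate 2 (adjusted p = 0.0595), NSM replicate 3 (adjusted p = 0.0998) or SM replicate 2 (adjusted p = 0.130), and with the cortical covariate (0.28, adjusted p = 0.247).

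The remaining calls in males were of weakly expressed genes and had no adjusted p under 0.05 by limma with all 12 libraries. The adaptor gene Irs4 measured 4.27, 2.50 and 4.54 CPM in NSM and 1.69, 1.72 and 1.40 CPM in SM, a log2 fold change of -1.20 (SE 0.42, adjusted p = 0.131 by limma), and its female libraries ranged from 1.65 to 5.58 CPM. The receptor gene Insrr went from 1.19 ± 0.371 to 0.729 ± 0.147 CPM (SD, n = 3), the binding protein gene Igfbp6 from 4.24 ± 0.352 to 5.87 ± 0.564, and the gene of the binding protein protease Pappa2 from 0.297 ± 0.0679 to 1.01 ± 0.488. Their log2 fold changes were -0.67, 0.47 and 1.61, with adjusted p of 0.154, 0.138 and 0.150 (limma). Pappa2 passed by DESeq2 (adjusted p = 0.00864), but its log2 fold change was 0.46 (adjusted p = 0.713) with the cortical covariate. Irs4 passed by limma in a fit of only the 6 male libraries (adjusted p = 0.0444), and its values over the alternatives ran from there to 0.389. None of the 5 tested PI3K subunit genes, such as Pik3r3 at 0.17 and Pik3ca at 0.02 on the log2 scale, was called in either sex.

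In females the 2 called genes were Sgk1 and Trib3. Sgk1, a kinase gene induced by glucocorticoids, measured 68.7, 77.2 and 70.7 CPM in NSF and 112, 84.8 and 91.0 CPM in SF, a log2 fold change of 0.40 (SE 0.08, adjusted p = 0.948 by limma). DESeq2 gave Sgk1 in females an adjusted p of 0.0324, and over all alternatives it lay between 0.0324 and 1.00. In males it measured 73.7, 69.4 and 72.4 CPM without and 89.0, 83.3 and 86.2 CPM with stress, a log2 fold change of 0.26 (SE 0.08, adjusted p = 0.0980 by limma). Stressed and unstressed libraries of Sgk1 were thus separate in both sexes, and stressed ones were higher. Groups were separate for 23% of all tested genes in males and 11.3% in females. Trib3, which encodes an inhibitor of AKT, went from 3.34 ± 0.363 to 2.20 ± 0.338 CPM in females (SD, n = 3), a log2 fold change of -0.60 (SE 0.19, adjusted p = 0.948 by limma). Between unstressed sexes 5 of the 67 genes (7.46%) were called, beside 5.31% of all tested genes. All 5 were higher in females, and of all tested genes 775 were called higher and 213 lower in females. The 5 were Igfbp6 (0.61), Eif4ebp1 (0.56), Sh2b2 (0.47), Trib3 (0.49) and Pappa2 (1.52 on the log2 scale). None of them had an adjusted p under 0.05 by limma with all 12 libraries. By DESeq2 the adjusted p was 0.0177 for Igfbp6 and 0.0107 for Pappa2. Pappa2 also passed without NSF replicate 2 (adjusted p = 0.0294 by limma), but with the cortical covariate it was at 0.40 on the log2 scale (adjusted p = 0.980). The covariate did not overlap between NSM and NSF, so that fit cannot tell the cortical part from sex.

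**Figure D4:**
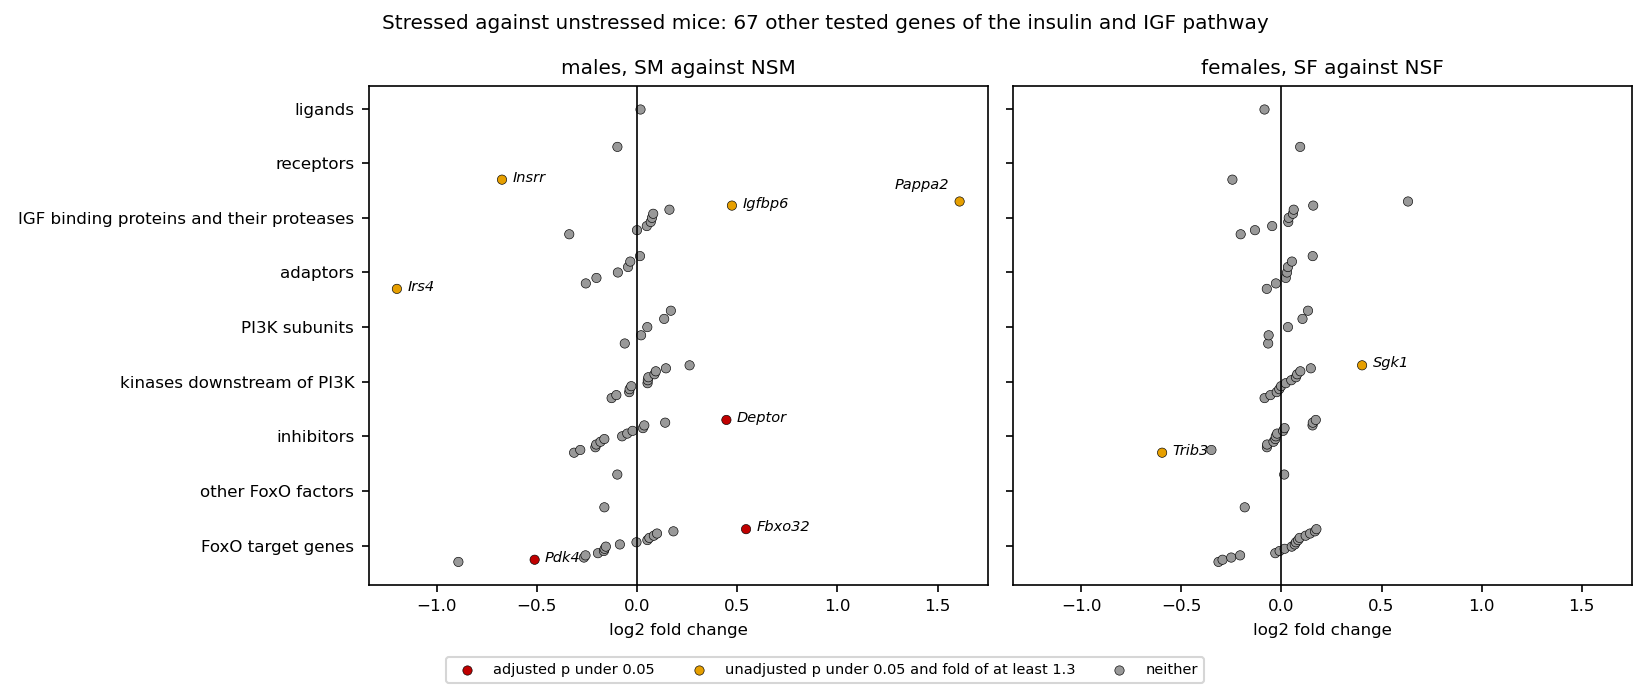
Each point is 1 of the 67 tested pathway genes in rows by role, at its log2 fold change with stress in males (left) and females (right), colored by the threshold passed. In males Pdk4, Deptor and Fbxo32 have an adjusted p under 0.05 by limma, and in females no gene does.

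**Figure D5:**
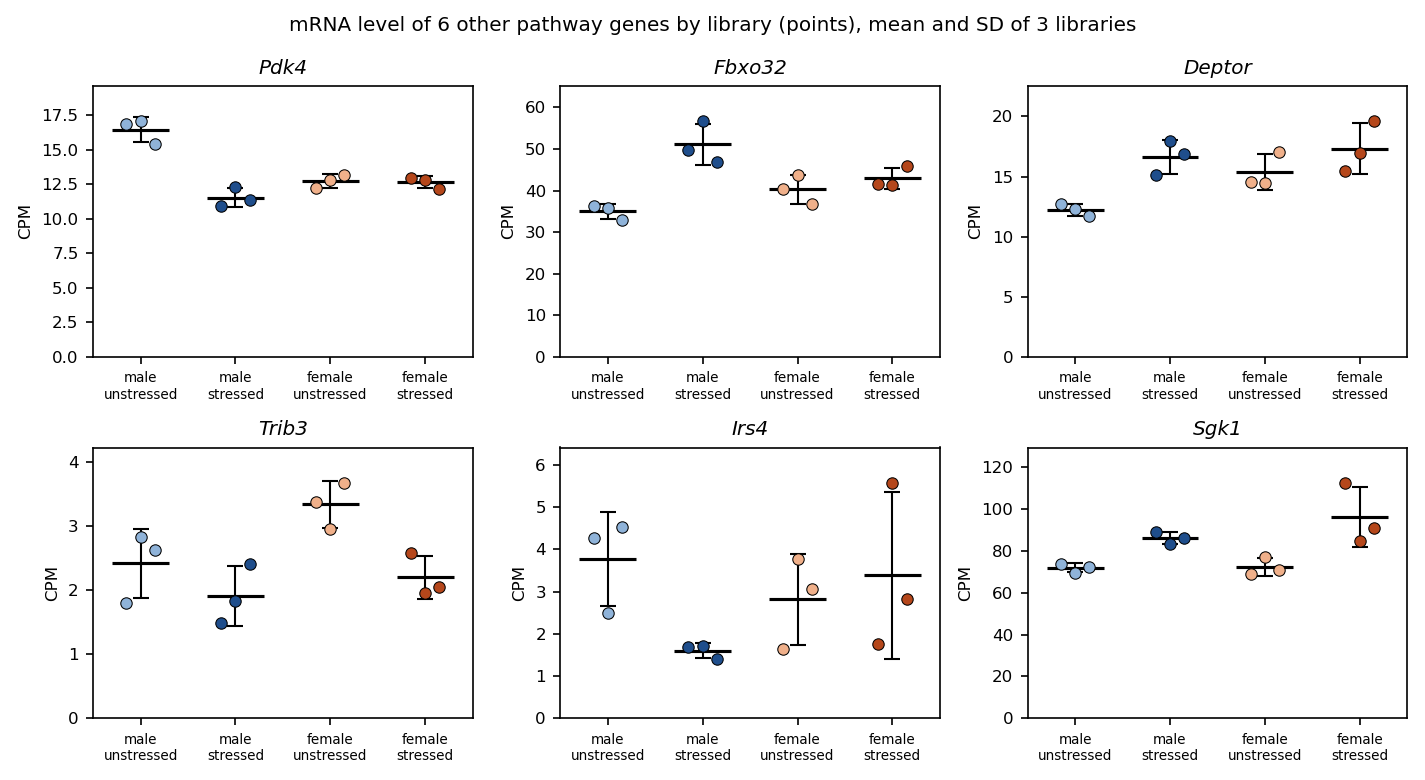
Each panel shows 1 gene of the wider pathway, with its level in CPM on a linear axis from 0, points for libraries, a thick line for the mean and a bar for the SD of 3 libraries. For Pdk4 the unstressed males, between 15.4 and 17.0 CPM, lie above all other libraries, and for Fbxo32 the stressed males, between 46.9 and 56.6 CPM, do.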

How the data were processed

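The authors aligned paired reads with TopHat2 to build NCBIM37 with an Ensembl annotation and used HTSeq to count reads per gene; the values deposited by the authors for each of the 12 libraries are these raw counts, not normalized. The small RNA counts of the series were not used here. Libraries were grouped by their labels. The 8 members, the other gene lists and the alternatives were chosen with earlier results of these data known.

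Counts were analysed in R 4.3.3 with edgeR 4.0.16 (TMM factors) and limma 3.58.1 (voom, one mean per group, all 12 libraries), after a filter that kept a gene if over 5 reads were found in 80% or more of the libraries of any group. The comparisons were SM against NSM, SF against NSF, their difference (interaction) and NSF against NSM. Calls needed an unadjusted p under 0.05 together with a 1.3-fold change or more, and p-values were adjusted by Benjamini-Hochberg over the 18593 tested genes. With 3 libraries a group, p-values measure the spread between pools of 5 mice. The steps were tested on simulated data. Gene positions and exon lengths came from the GENCODE annotation of NCBIM37, and promoters from RefSeq.

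Named were all members, every other pathway gene with an adjusted p under 0.05 in any comparison, up to 8 more called per comparison, and the 3 genes most like each member (the nearest is printed except for Irs2). Genes named beside these as examples were picked after their values were seen. Alternatives were DESeq2 1.42.0, the quasi-likelihood test of edgeR, other scalings and filters, sample weights, a replicate block, a cortical marker covariate (the mean log2 CPM of 8 genes), only the libraries compared, and leaving out each library. An item of the pathway list is not reported here. Plots were drawn with matplotlib 3.10.9 (Python 3.11.15).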

Additional observations from a re-analysis of the deposited data

Results flagged for a closer look

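In 12 genes the stress difference was set apart between the sexes, either because the difference between the 2 log2 fold changes, female minus male, passed an unadjusted p under 0.05 with a fold of at least 1.3, or because every stressed male library moved one way from the mean of unstressed males and every stressed female library the other way from that of unstressed females. The 12 were 16% of the 75 tested members and other pathway genes, beside 9.33% of all 18593 tested genes. With all 12 libraries no adjusted p of limma for this difference was under 0.05 in any of them.

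By the first criterion Irs2 differed by 0.69 (SE 0.14), with -0.82 in males and -0.14 in females, and the 3 SM libraries lay below all 9 others. Pdk4 differed by 0.50 (SE 0.09, adjusted p = 0.120) and Fbxo32 by -0.45 (SE 0.11, adjusted p = 0.199, limma), each with a female value near 0. DESeq2 gave Pdk4 an adjusted p of 0.00605 and Fbxo32 one of 0.0230, and limma gave Pdk4 0.0451 with sample quality weights and 0.0345 without NSF replicate 2, while with the cortical covariate both were at 0.902. Irs2 passed the adjusted threshold by DESeq2 and, by limma, without NSM replicate 1 or NSF replicate 2. Irs4 differed by 1.36 (SE 0.57, adjusted p = 0.473 by limma), at a level of a few CPM. Bcl6 (0.41, SE 0.10, adjusted p = 0.214) and Klf15 (0.38, SE 0.12, adjusted p = 0.319, limma) met both criteria, with lower values in stressed males and higher ones in stressed females.

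By opposite direction alone, the difference was 0.36 for Grb10 (adjusted p = 0.292), 0.33 for Txnip (0.365), 0.19 for Igf2r (0.511) and 0.11 for Foxo4 (0.640), with males lower and females higher with stress. It was -0.28 for Igfbp7 (adjusted p = 0.505) and -0.37 for Gadd45a (0.664, limma), with males higher and females lower. Opposite directions were found in 6.94% of all tested genes and in 10.7% of the 75, and by this criterion the difference was not tested.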

How the results depend on the processing

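The male difference of Irs2 ranged from -0.93 to -0.75 over 23 alternatives, its interaction from 0.59 to 0.80 over 22, and it was called in males in all of them. It kept an adjusted p under 0.05 in males in all but the fit with the cortical covariate, where 1 gene of all tested had one. That covariate did not overlap between NSM and SM, or between NSM and NSF. For the members, all these fits reuse the libraries by which the set was chosen, so they describe dependence on processing and carry no test. No called value changed sign. With the cortical covariate 2 members were called in males, Irs2 and Igf1, and 1 of the other pathway genes between unstressed sexes (5 without it). At an adjusted p under 0.05, 3 other pathway genes passed in males (7 by p and fold), 0 in females (2), 0 for the interaction (5) and 1 between sexes (5), and 0 members for the interaction (1). Sample weights left 1 other pathway gene in females. Leaving out 1 library gave 0 to 1 called members in females (1, Igf1, without NSF replicate 2), and 1 to 4 other pathway genes in females (1 without NSF replicate 1, 4 without NSF replicate 2), 3 to 6 for the interaction (3 without NSM replicate 3 or SF replicate 2) and 3 to 6 between sexes (3 without NSM replicate 1 or NSF replicate 3).

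Replicate numbers do not pair the libraries by the labels. Same-numbered deviations correlated by 0.000725 to 0.316 in males and 0.0756 to 0.107 in females. Of the 12 libraries, 8 correlated best with their own number among the 3 libraries of the other group of their sex. With the replicate block the log2 fold change of Irs2 was -0.83 in males and -0.14 in females, the genes with an adjusted p under 0.05 in males went from 618 to 998, and Igf1r joined them, as it did with scaling by library size only and with sample weights. Under the block Pappa2 passed in males (adjusted p = 0.0314) and Igfbp6 and Pappa2 between unstressed sexes (0.0289 and 0.0373, limma). Depth limits Igf1 and Irs1 most, with 121 and 271 reads in their lowest libraries.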
